A study of Drosophila melanogaster with 8 samples.

Results

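The comparison described here is knockdown of DmSTING in S2 cells that received no cyclic di-GMP. It rests on 4 of the 8 arrays of the series, chosen by their titles: 2 samples given double-stranded RNA (dsRNA) against DmSTING and 2 given a scrambled dsRNA, all 4 mock transfected. S2 is a macrophage-like cell line of Drosophila melanogaster that takes up dsRNA and degrades the matching transcript (RNA interference, RNAi). The cells grew in Schneider's medium with serum and antibiotics, received dsRNA with the lipid reagent Cellfectin II, and 72 h later were transfected again. Mock cells then got the lipid alone, and the other 4 samples of the series (2 per dsRNA) got the bacterial second messenger cyclic di-GMP (c-di-GMP). Total RNA was taken 24 h after the later transfection. The mock cells had therefore been lipid-transfected on both occasions and all groups carried a dsRNA, so an untouched S2 cell is not among the groups. The genotype field of the labels contradicts the titles in 4 samples, including both DmSTING mock samples, and follows the treatment. Titles and source names were used.

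The values are log2 units on Affymetrix arrays, relative to the median of each probe set over the 8 samples, so differences between samples can be read and expression levels cannot. The base of the logarithm was not stated and was taken as 2. Of 16718 probe sets, 12339 named a single gene, and averaging them per symbol gave 11009 genes. The labels do not say whether the replicates came from separate cultures. The p-values therefore cover sample-to-sample spread that may be technical only. In bulk RNA, fewer cells of a type and less RNA per cell cannot be told apart. The number of arrays, 2 per group, limits the precision.

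STING is a membrane protein of the endoplasmic reticulum that binds cyclic dinucleotides, either bacterial ones such as c-di-GMP or those made by cGAS-like receptors. In flies it acts ahead of the kinase complex of IKKbeta and Kenny (key) and the NF-kappaB factor Relish (Rel), which are shared with the IMD pathway, and induces antiviral genes such as Nazo. The IMD pathway is otherwise started by bacterial peptidoglycan and induces antimicrobial peptides. The comparison asks whether lowering Sting alters cells to which no cyclic dinucleotide was added.

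Sting was the only gene that passed the test, and it fell. Its value was 0.81 and 0.83 in the scrambled mock samples and -0.48 and -0.46 in the DmSTING mock samples. The groups lay far apart, and the replicates of each group were close together. The log2 change was -1.29 (SE 0.07, n = 2 per group, 95% interval -1.46 to -1.12, limma, adjusted p = 0.0032), which leaves 41.0% of the scrambled level, with an interval of 36.4% to 46.1%. Sting was represented by 1 probe set. With column medians subtracted the change was -1.29, and after quantile normalization of the 8 arrays it was -1.96. Quantile normalization was run on values already centred per probe set, and it gives arrays of unlike spread the same distribution. The -1.96 therefore cannot show what another scaling of the raw signals would give, and that size is not known. The direction of the change was the same under every alternative run. The call also needed all 4 mock arrays: without any 1 of them the change stayed between -1.30 and -1.27, but the adjusted p was 0.096 without scrambled mock replicate 1, 0.109 without scrambled mock replicate 2, 0.113 without DmSTING mock replicate 1 and 0.103 without DmSTING mock replicate 2.

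**Figure D1:**
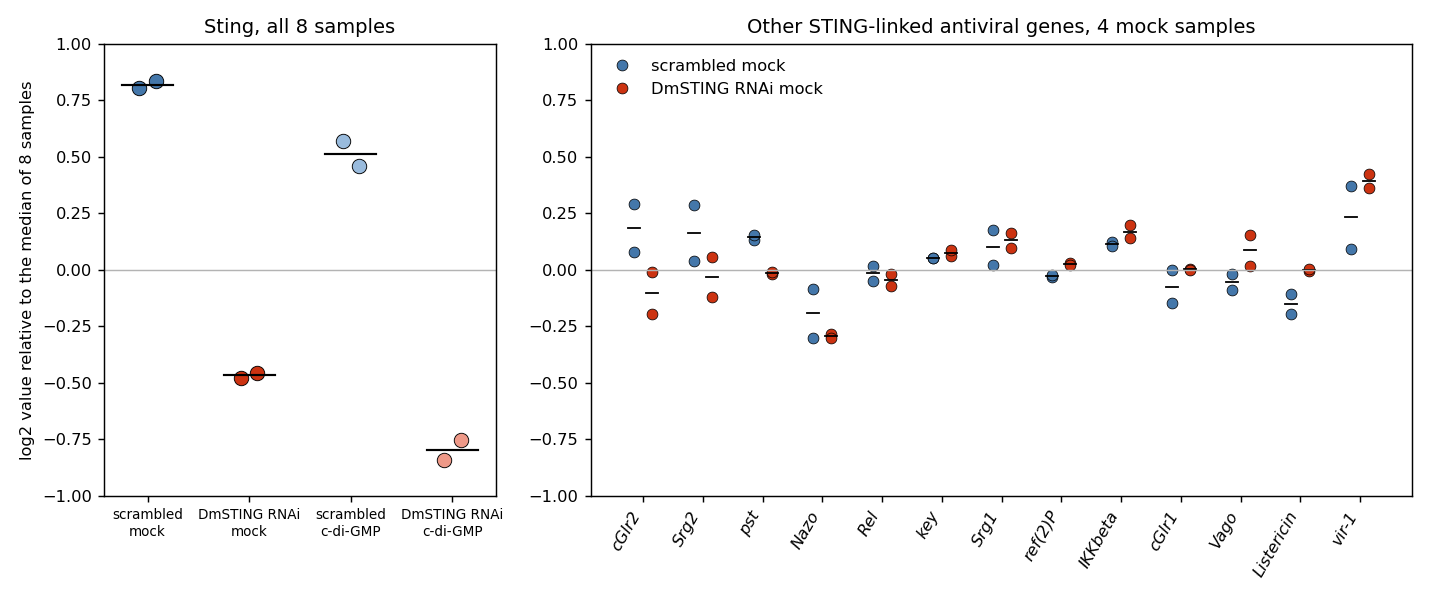
Left, the log2 value of Sting relative to the median of 8 samples in each sample of the 4 groups (points, bars are group means). Right, the same measure for the 13 other STING-linked antiviral genes in the 4 mock samples. All 4 samples given DmSTING dsRNA lie below all 4 scrambled samples for Sting, and no other gene of the list shows a gap of that size.

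Across the 11009 genes, 1 gene was called at an adjusted p under 0.05 (0.00908% of the genes tested), and it was Sting. No gene was called higher. The second smallest adjusted p was 0.996. At an unadjusted p under 0.05 there were 355 genes (3.22%), 166 higher and 189 lower in the knockdown. Sting was also the only gene more than 2-fold apart. The next largest difference was that of bug, at -0.60 (SE 0.11, unadjusted p = 0.00089). Its values were 0.32 and 0.14 in scrambled mock and -0.33 and -0.41 in DmSTING mock, so its groups did not overlap, and under c-di-GMP its log2 change was -0.40. Rph, which encodes rabphilin, a Rab-binding protein of synaptic vesicles, stood highest among genes named by the rule, at 0.55 (SE 0.26, unadjusted p = 0.0752). Its values were -0.11 and -0.30 against 0.18 and 0.51, and its DmSTING mock replicates were wide apart. These 3 genes were the only ones with an absolute log2 change of at least 0.5.

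**Figure D2:**
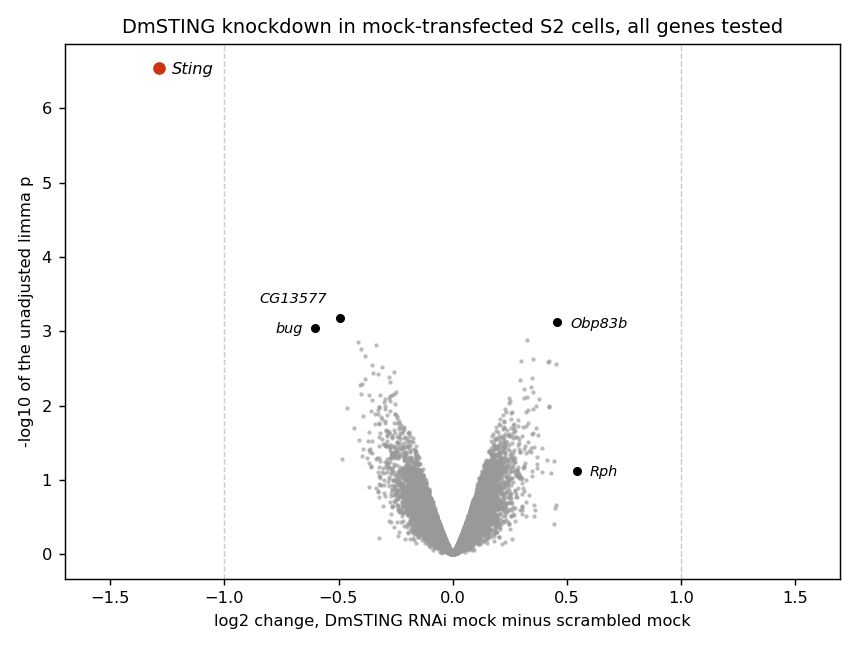
Log2 change between DmSTING mock and scrambled mock (horizontal) against the -log10 of the unadjusted limma p (vertical) for 11009 genes, with dashed lines at 2-fold. Sting stands alone at -1.29; bug, Rph, CG13577 and Obp83b are labelled for size or p, Obp83b having been picked after its values were seen.

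The intervals set a bound on the change in the measured values, on the assumed log2 scale and with the deposited scaling. With the spread taken from all 8 arrays, the 95% interval of 10436 genes (94.8%) lay inside a 1.5-fold change in either direction, and that of 10977 genes (99.7%) inside a 2-fold change. These intervals are per gene and not adjusted for the number of genes. Of 127 chemoreceptor genes, a reference class of sensory neurons, 118 (92.9%) also lay inside 1.5-fold. Centred values do not show which genes are expressed, so a narrow interval does not bound the change of a transcript that the probes do not detect. Besides Sting, 31 genes had an interval that reached 2-fold, the widest being that of PGRP-LB. With the spread taken from the 4 mock arrays alone, 10826 genes (98.3%) lay inside 1.5-fold and 4 genes reached 2-fold: Sting, CBP, CG18557 and Cyp6d2.

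The dsRNA moved the arrays little beyond the distance between replicates. The SD over genes of the difference between replicates was 0.166 for scrambled mock and 0.119 for DmSTING mock. Between a scrambled and a DmSTING mock array it was 0.134 to 0.172 over the 4 pairs. Between a mock and a c-di-GMP array it was 0.239 to 0.307 over the 16 pairs. The group difference itself had an SD over genes of 0.111, where replicate spread alone would give 0.102.

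Other STING-linked genes, the receptors and effectors around Sting, did not pass the test. Of 14 members matched by symbol 1 was called, which is Sting. Of the 13 others, 10 had intervals inside 1.5-fold with the spread from all 8 arrays, the exceptions being Listericin (-0.50 to 0.80), Srg2 (-0.86 to 0.47) and Rel (-0.60 to 0.55). All 13 were inside it when the spread came from the 4 mock arrays. The median of the list was 0.03, against 0.01 for all genes. The groups did not overlap in 9 of the 14, 6 higher and 3 lower, with Sting itself among the 3 lower. Of all genes, 38.9% did not overlap (22.3% higher, 16.6% lower). Of the cGAS-like receptors, cGlr1 had values of -0.15 and 0.00 in scrambled mock against 0.01 and 0.00, a difference of 0.08. cGlr2 had 0.29 and 0.08 against -0.01 and -0.19, a difference of -0.29, the furthest from 0 in the list after Sting. With all 8 arrays the interval of cGlr2 was -0.55 to -0.03 (limma, unadjusted p = 0.0348), and it was not called. Among effectors, Nazo differed by -0.10 and Listericin, an antibacterial peptide gene, by 0.15. The pair of Sting-regulated genes Srg1 and Srg2 stood at 0.03 and -0.19. The antiviral gene pst (pastrel) stood at -0.16, with 0.13 and 0.16 in scrambled mock against -0.02 and -0.01, and the secreted antiviral factor Vago at 0.14.

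The antimicrobial peptides, which are the usual readout of IMD signalling, did not pass the test in resting cells. Of 14 listed genes 6 had a probe set of their own, 0 were called by limma, and the mock groups overlapped in all 6, where 38.9% of all genes did not overlap. The median was -0.01, from -0.32 (CecB) to 0.06 (Def). CecB, a cecropin, had values of 0.30 and -0.36 in scrambled mock and -0.30 and -0.42 in DmSTING mock, so its difference rests on 1 scrambled array and was 0.01 without it. Mtk (metchnikowin) had -0.01 and -0.22 against 0.01 and -0.22. Def (defensin) had -0.26 and 0.02 against -0.12 and -0.02. In each of these the mock samples were intermixed. The precision differed with the samples that set the spread: 1 of the 6 had an interval inside 1.5-fold with all 8 arrays, and 5 of the 6 with the 4 mock arrays, CecB being the exception.

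Components of the IMD pathway did not pass the test. The list of 20 measured genes also holds Sting, the target of the dsRNA, which was the 1 called. Of the 19 others, 15 had intervals inside 1.5-fold with all 8 arrays and all 19 with the 4 mock arrays. With all 8 arrays those of PGRP-LB (-1.69 to 1.60) and pirk (-1.37 to 1.27) reached past 2-fold. The mock groups did not overlap in 13 of the 20, 9 higher and 4 lower, with Sting itself among the lower. Of all genes, 38.9% did not overlap (22.3% higher, 16.6% lower), and whether the list differs from that was not tested. Among receptors, PGRP-LE differed by 0.09 and PGRP-LA by 0.16. The adaptors imd and Fadd stood at -0.02 and 0.09 and the caspase Dredd at 0.03. In the kinase complexes, Tab2 was at 0.03, key at 0.03 and IKKbeta at 0.05, and Rel, the transcription factor, was at -0.03. The widest difference other than that of Sting was that of ben, a ubiquitin-conjugating enzyme, at -0.25. Its values were 0.22 and 0.07 in scrambled mock against -0.06 and -0.15. With all 8 arrays the interval of ben was -0.43 to -0.06 (limma, unadjusted p = 0.0146), and it was not called. Among inhibitors, pirk stood at -0.05, casp at -0.07, PGRP-LB, a peptidoglycan-cleaving amidase, at -0.05, and dnr1 at 0.14.

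**Figure D3:**
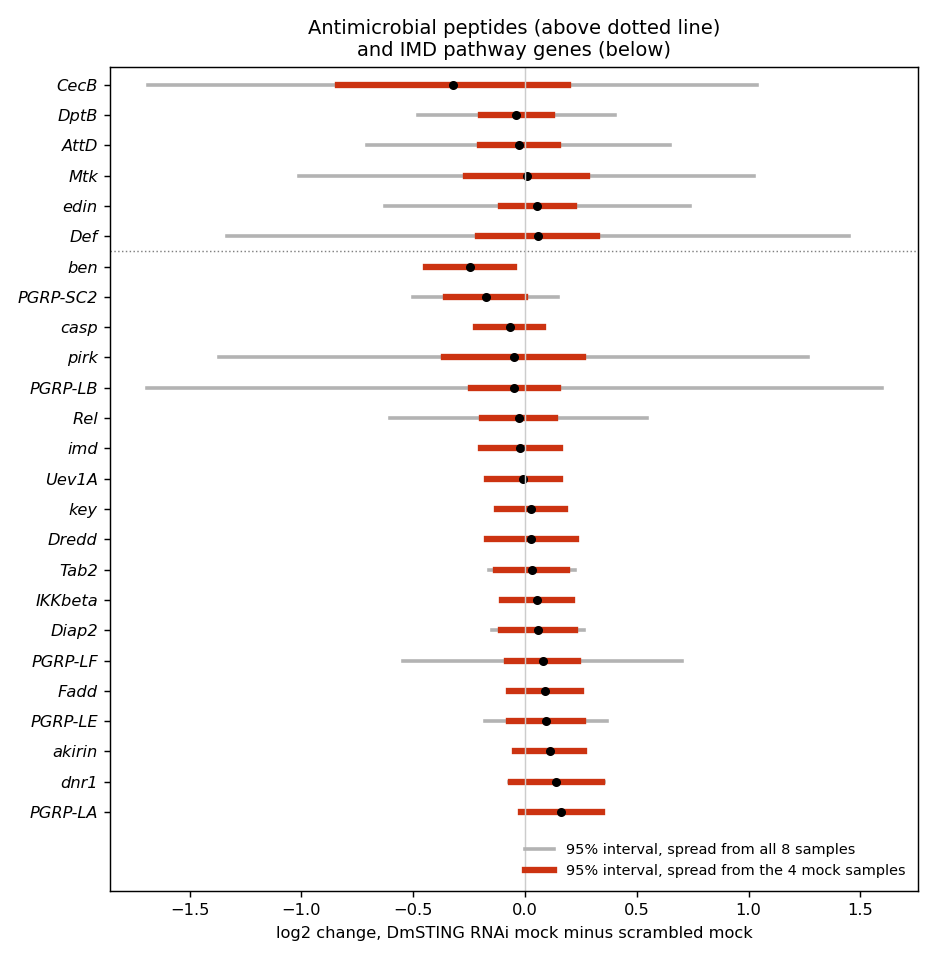
Log2 change between DmSTING mock and scrambled mock (points) for 6 antimicrobial peptides and the 19 genes of the IMD list other than Sting. Bars are the 95% interval from all 8 samples (grey) and from the 4 mock samples (red). The points lie between -0.32 and 0.16, and the grey intervals are widest for CecB, Def, Mtk, pirk and PGRP-LB.

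Other immune and stress pathways had medians close to that of all genes, and no member of them was called. The Toll effectors had a median of 0.07 over 10 genes, and BomBc3, a bomanin, was at 0.20. Toll pathway components had a median of 0.03 over 18, with the serine protease spirit at -0.33. JAK-STAT genes had a median of 0.01 over 11, and the small RNA machinery that carries out RNAi -0.02 over 13. JNK pathway genes stood at 0.01, heat shock genes at 0.00 and the unfolded protein response at 0.03. Detoxification genes, 28 in number, had a median of 0.01. The members of smallest p were modest in size. Ptp61F, a phosphatase that dampens JAK-STAT signalling, was at -0.16, with 0.16 and 0.02 in scrambled mock against -0.08 and -0.06. Fmr1, an RNA-binding protein found with the RNAi machinery, was at -0.18, with 0.00 and -0.15 against -0.23 and -0.28. Gadd45, a stress-response gene, was at 0.19, with -0.32 and -0.32 against -0.11 and -0.15. In these 3 genes, picked for their p, the mock groups did not overlap, as in 38.9% of all genes. The glutathione transferase GstD3 was at 0.19, with -0.27 and -0.24 against -0.09 and -0.04, and its groups did not overlap either. Hsp68, a heat shock chaperone, had 0.44 and 0.24 against 0.32 and 0.53, so its samples were intermixed.

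Lipid metabolism and autophagy, which STING is known to touch in flies, also had no called member. The lipid list had a median of 0.01 over 23 genes. ACC, acetyl-CoA carboxylase, the committed enzyme of fatty acid synthesis, had 0.04 and 0.13 in scrambled mock against 0.40 and 0.28, a difference of 0.25 (unadjusted p = 0.0127). The autophagy list had a median of 0.03 over 22 genes. Atg9, a membrane protein of the forming autophagosome, had 0.05 and 0.15 against 0.31 and 0.33, a difference of 0.22 (unadjusted p = 0.0134). Both were named as the members of smallest p in their lists. For both genes the mock groups did not overlap, as in 39.1% of the lipid list, 54.5% of the autophagy list and 38.9% of all genes. Neither passed the adjusted test.

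Lists of housekeeping complexes had medians close to 0. The mitochondrial ribosomal proteins had a median of 0.05, with 55 of 71 above 0, and the respiratory chain and ATP synthase 0.05, with 59 of 72 above 0, where 5994 of all genes (54.4%) were above 0. Under c-di-GMP the medians of these lists were 0.13 and 0.15, against 0.03 for all genes. Cytosolic ribosomal proteins and proteasome subunits were both at 0.04. In the vacuolar ATPase, Vha16-2, a subunit of the proton channel ring, stood at 0.30, with -0.07 and -0.05 against 0.28 and 0.21. In ribosome biogenesis, nclb stood at -0.40, with 0.10 and -0.10 against -0.44 and -0.36. Neither was called. The medians of these lists were 0.04 and 0.02, over 31 and 27 genes. DNA replication genes stood at 0.00 over 25, aminoacyl-tRNA synthetases at 0.02 over 29, glycolysis at 0.06 over 14, and transport from the endoplasmic reticulum to the Golgi, the route STING itself takes, at 0.05 over 20. Apoptosis genes were at 0.02, purine synthesis at -0.04, ecdysone response at -0.03 and phagocytosis receptors at -0.03. Over all 34 lists, 767 genes other than Sting were matched by symbol. Of them 0 were called by limma and 21 (2.74%) had an unadjusted p under 0.05, near the 3.22% of all genes. Of these 767, 724 (94.4%) had an interval inside 1.5-fold with all 8 arrays and 753 (98.2%) with the 4 mock arrays, near the 94.8% and 98.3% of all genes.

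**Figure D4:**
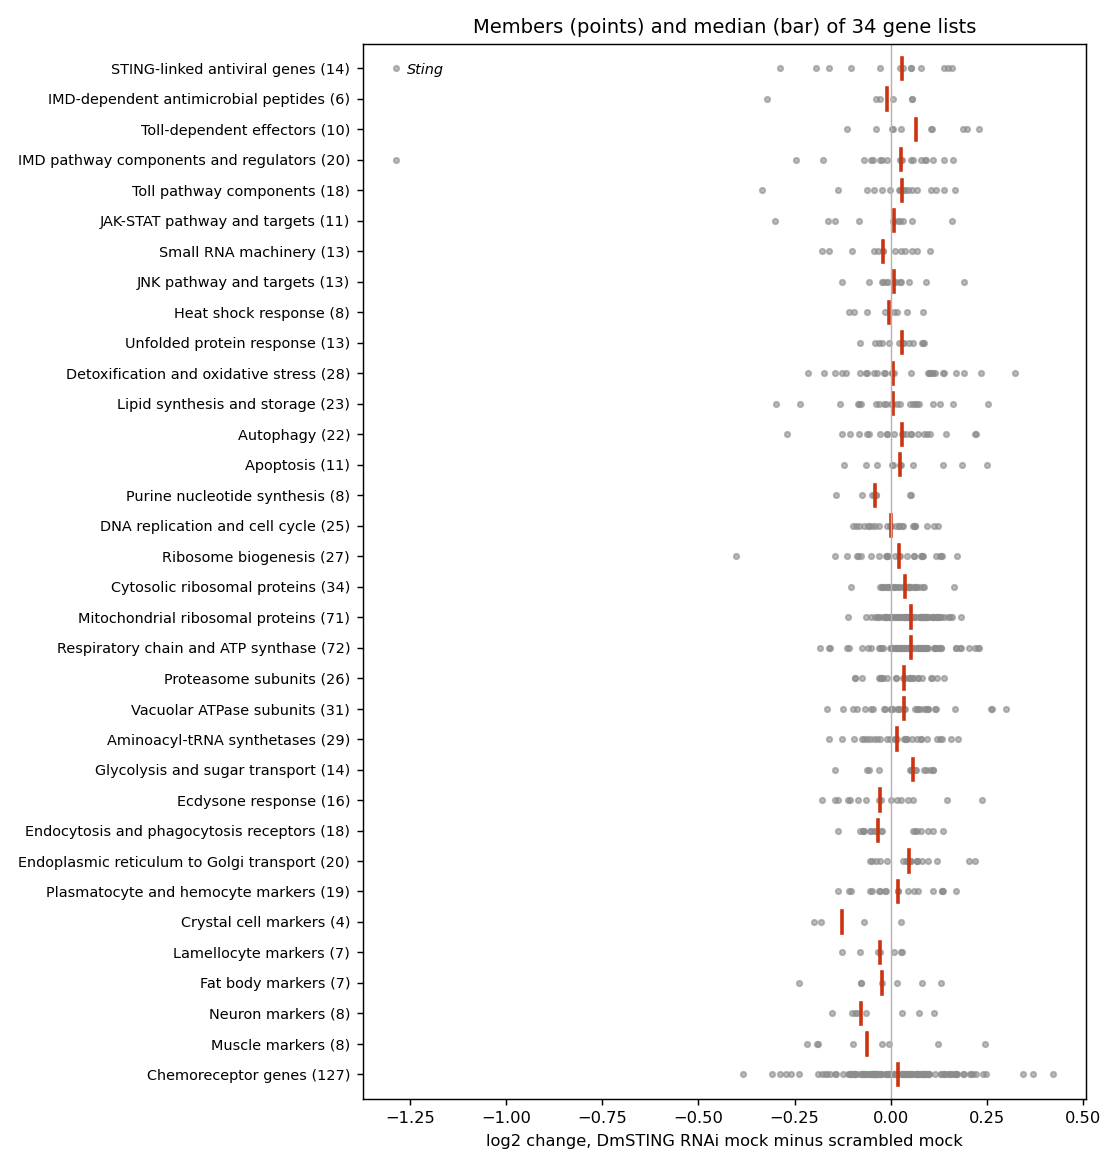
Log2 change between DmSTING mock and scrambled mock for each member matched by symbol (points) and the median (red bar) of 34 gene lists, with the number of members in brackets. Apart from Sting, members lie between -0.40 and 0.42, and 33 of the 34 medians lie within 0.1 of 0.

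No cell type marker passed the test. The plasmatocyte and hemocyte list had a median of 0.02 over 19 genes, and drpr, the phagocytic receptor Draper, was at 0.11. Lamellocyte, fat body, neuron and muscle markers had medians of -0.03, -0.02, -0.08 and -0.06, and the 4 measured crystal cell markers -0.13. Whether any marker is present at all cannot be read from centred values. Chemoreceptor genes, a reference class of receptors of sensory neurons, had a median of 0.02 over 127 genes and ranged from -0.38 (Gr59e) to 0.42 (Ir31a).

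The genes beside Sting in the RefSeq gene table were measured as a description of the locus. The 5 measured genes before it were Vamp7 (0.12), Marc (0.06), Lsm11 (-0.09), CG1663 (0.10) and hebe (-0.08). The 5 after it were Prosalpha7 (0.06), CG1671 (-0.01), PCB (-0.03), CG30010 (0.13) and peo (0.14). None was called. Orc6, which overlaps Sting in that table, was not analysed here.

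The same dsRNA pair was also compared under c-di-GMP, in samples that share no array with the mock comparison. There too Sting was the only called gene (0.00908%), at 0.57 and 0.46 in scrambled against -0.84 and -0.75 in DmSTING samples, a log2 change of -1.31. That call was lost with only the 4 c-di-GMP samples in the fit and without DmSTING c-di-GMP replicate 1 (0 genes called in each), and 34 genes were called without its replicate 2. The knockdown effect on Sting differed between treatments by 0.02 (interaction, unadjusted p = 0.821). Beyond Sting the comparisons differed in spread: 20 genes were over 2-fold apart under c-di-GMP against 1 under mock, and 69 against 2 were over 1.5-fold apart. At an unadjusted p under 0.05 there were 1511 genes (13.7%) under c-di-GMP. The antimicrobial peptides had a median of -1.07 there. PGRP-LB was at -2.06 under c-di-GMP against -0.05 under mock, Def at -1.81 against 0.06, and Mtk at -1.60 against 0.01. The difference of the effects was 2.02 (SE 0.99), 1.87 (SE 0.84) and 1.61 (SE 0.61), and none passed the adjusted test. Over all genes the interaction called 0 (limma, smallest adjusted p = 0.988), with 540 (4.91%) at an unadjusted p under 0.05. For the interaction, the rule named the genes of smallest p with an absolute difference of at least 0.5. Higher under mock were CG18234 (0.42 under mock, -0.43 under c-di-GMP), CG10086 (0.20 and -0.75) and Ir40a (0.19 and -0.34). Lower under mock were CG15740 (0.06 and 0.76), CG13577 (-0.49 and 0.21) and CG14961 (-0.06 and 0.51). None of them passed the interaction test. Without DmSTING c-di-GMP replicate 2 the interaction called 12 genes, PGRP-LB, Def and Mtk among them. The 2 DmSTING c-di-GMP samples were themselves far apart for these genes, at -0.79 and 1.85 for PGRP-LB.

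**Figure D5:**
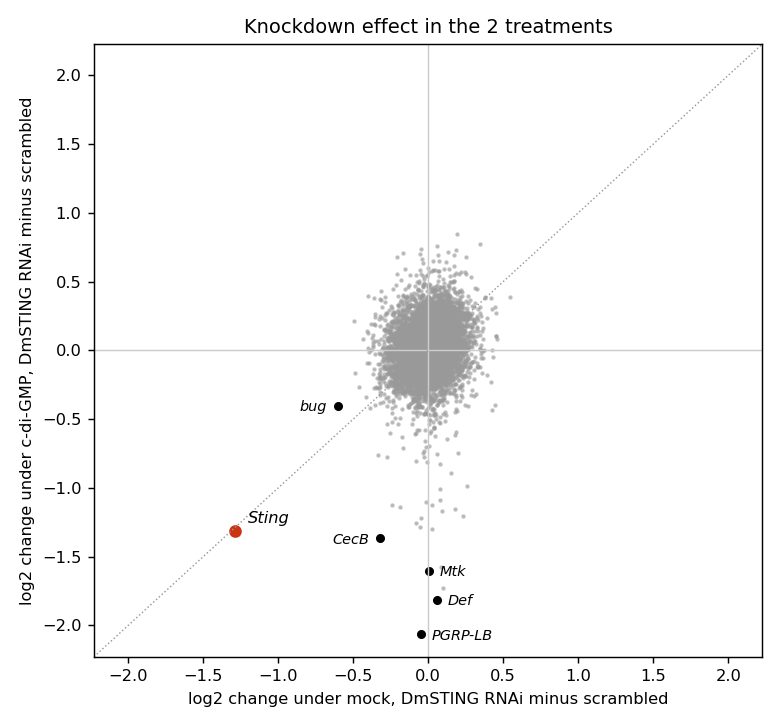
Log2 change of DmSTING RNAi against scrambled under mock (horizontal) and under c-di-GMP (vertical) for 11009 genes, with the line of equality dotted. Sting lies on the line at -1.29 and -1.31, while PGRP-LB, Def, Mtk and CecB lie near 0 or at -0.32 under mock and between -1.37 and -2.06 under c-di-GMP.

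As a description over genes, which are not independent replicates, the sign of the knockdown effect was the same under mock and c-di-GMP in 60.7% of all genes, and in 236 (66.5%) of the 355 with an unadjusted p under 0.05 under mock. All 4 DmSTING samples lay apart from all 4 scrambled samples in 508 genes (4.61%), 329 higher (2.99%) and 179 lower (1.63%). Averaged over both treatments, an alternative chosen after seeing the data, Sting was again the only called gene, but 12 genes were called without DmSTING c-di-GMP replicate 2.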

How the data were processed

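Biotin-labelled total RNA was hybridised to Affymetrix arrays, per the labels' protocols. The deposited table holds values made by the authors, taken here as log2. All 16718 probe sets have a median over the 8 samples within 1e-06 of 0. For probe summarization, scaling, filters, software and the base of the logarithm, the method was not given in the sources used here. That higher means more transcript is not stated either; Sting, lower after DmSTING dsRNA, goes with it. Probe sets with several symbols (367), none (3888) and controls (124) were left out of the main test. Symbols came from the platform annotation, and 67 Entrez IDs were not in the RefSeq gene table (Release 6 plus ISO1 MT).

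Genes were fitted with limma 3.58.1 in R 4.3.3 (lmFit, eBayes) on 4 group means over all 8 samples, with Benjamini-Hochberg adjustment over 11009 genes and calls at an adjusted p under 0.05. Tables were made with Python 3.11.15 and pandas 2.3.3. The fit was tested on simulated data. The members and the 34 gene lists were chosen with earlier results of these data known. Named genes were Sting and called genes, otherwise those of smallest p with an absolute log2 change of at least 0.5. The leading member of each list and 5 measured neighbours of Sting on each side were named too. Some members of the STING-linked, antimicrobial peptide and IMD lists, not all, are given besides. List symbols were matched exactly, so listed genes measured under another symbol were left out, such as Adsl and Pfas in purine synthesis. Alternatives were scaling, centring, the samples sharing the spread, a replicate block, robust moderation, the probe sets used and leaving out each sample.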

Additional observations from a re-analysis of the deposited data

How the results depend on the processing

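Sting was the only gene called under mock in all 8 alternatives that kept every library, and its change was -1.96 after quantile normalization. Leaving out 1 library at a time gave 0 to 1 called genes under mock, and 0 to 1 called with the same direction under c-di-GMP, the 0 being without any 1 of the 4 mock libraries (unadjusted counts 284, 721, 197 and 146); Sting itself was -1.30 to -1.27. Unadjusted counts were 355 in the main test, 738 after quantile normalization and 671 with only the 4 samples compared. Under c-di-GMP, 0 genes were called with only the 4 samples compared (847 unadjusted), and 0 to 34 with 1 library left out: 0 without DmSTING c-di-GMP replicate 1 and 34 without its replicate 2. The latter also gave the 12 in the ranges of 0 to 12 for the interaction and 1 to 12 for the average. Of 729 values of named genes, 721 kept direction and side and 8 reversed: CecB 0.0069 (-0.65 to 0.0069), Hsp68 -0.020 and -0.019 (-0.020 to 0.19), Marc -0.024 (-0.024 to 0.15), hebe 0.021 (-0.18 to 0.021), CG1671 0.012 (-0.032 to 0.012) and PCB 0.029 (-0.081 to 0.029) with a library left out, and PCB 0.015 with the probe set of largest range. The cause was not tested. List medians moved as well, by 0.15 at most. With 1 mock library left out, some lay on either side of 0. The STING-linked median was -0.011 to 0.045, JAK-STAT -0.072 to 0.044, apoptosis -0.050 to 0.099 and ecdysone response -0.088 to 0.063. Others kept their sign, such as the mitochondrial ribosomal proteins at 0.027 to 0.083.

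Replicate numbers are shared by the groups, but same-numbered samples deviated together only weakly (r of 0.00926 to 0.289; 0.113 between the mock groups), so the numbers were not taken as pairs. With a replicate block, 1 gene was called under mock (Sting, -1.29, adjusted p = 0.0179; 452 unadjusted), 1 under c-di-GMP and 0 in the interaction. A filter on dim probes could not be run on centred values.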

Other observations

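Probe sets that name several genes were left out of the gene tests, and their values are given here without naming a single gene. The set shared by PGRP-SC1a and PGRP-SC1b, amidases that degrade peptidoglycan, had 0.05 and 0.07 in scrambled mock against -0.14 and -0.10 in DmSTING mock, a log2 difference of -0.18 in samples that did not overlap, and it was not called. The set shared by Hsp70Aa and Hsp70Ab, heat shock chaperones, had 1.17 and 0.42 against 0.56 and 0.93, a difference of -0.04 in samples that were intermixed.

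All probe sets other than controls were also tested one by one, named or not, an alternative chosen after seeing the data. Under mock 1 was called, the one of Sting, and 540 had an unadjusted p under 0.05.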
